A study of Mus musculus with 24 samples.

Results

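The 43 genes described here encode the machinery that copies DNA in S phase, and they were followed through 8 groups of mouse dorsal root ganglion (DRG) samples. They were listed by name and function, with earlier results of these data known, and all 43 were found among the 20782 genes of the deposited table. By role they are 6 subunits of the MCM helicase, 5 origin licensing factors, 6 factors of helicase activation, 6 polymerase and primase subunits, 6 genes of the sliding clamp, its loader and the single-strand binding protein RPA, 4 genes of lagging strand processing and chromatin assembly, 4 genes of nucleotide supply and 6 genes of S phase control and the replication checkpoint.

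Before a cell copies its DNA, the origin recognition complex, CDC6 and CDT1 load the ring-shaped MCM helicase onto origins. At the start of S phase, MCM10, CDC45 and the GINS complex turn the helicase on, and polymerases, the PCNA clamp and ribonucleotide reductase then sustain the fork. Many of these genes are transcribed from E2F sites late in G1. In the DRG, neurons are born from dividing progenitors in the embryo and do not divide afterwards, whereas satellite glia, Schwann cells, macrophages and fibroblasts of the adult ganglion can re-enter the cycle.

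The study, on a calcium channel subunit that limits axon regeneration, sequenced RNA of mouse DRG in 24 libraries, 3 in each group. The embryonic groups were lumbar ganglia at E12.5 and E17.5. The operated groups were adult L4 and L5 ganglia after a sham operation or after a peripheral lesion. The cultured groups were adult lumbar ganglia, dissociated, plated sparsely on laminin in Neurobasal-A with B-27 and collected at 6, 12, 24 and 36 h. The protocol text is the same for all libraries and names isolation of the cells by sorting, but not the marker, the strain, the sex, the genotype, the number of animals or the interval after the operation. No source ties the libraries to separate animals or cultures, so a p-value here reflects only the scatter of libraries within groups. That scatter was pooled over all groups of a fit, and some or all of it may be technical.

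The unit below is the normalized read count, a library's reads for a gene divided by that library's size factor. Depth was 3103838 to 25732182 reads a library, and 5 libraries had at most 4610428 reads: replicates 2 and 3 of E17.5, replicate 3 of 6 h, replicate 1 of 12 h and replicate 1 of 24 h. Every source label reads DRG neuron, but markers of other cell types were present in each group. The summed normalized count of 10 neuron markers was 28210 to 43737 at E12.5, 167612 to 177068 in sham ganglia and 62201 to 73086 at 36 h. That of 9 Schwann cell markers was 5772 to 7528, 98451 to 118393 and 39790 to 42687 in the same groups. In these bulk samples, fewer cells that replicate DNA and less replication RNA in each cell cannot be told apart.

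Promoters are shown first, as a description, and any link between their letters and the changes given below was not tested. RefSeq promoter windows (build GRCm38.p6, 250 bases before and 50 after the annotated start) were matched by symbol for 34 of the 43 genes. Those of Pole, Ccne2, Gmnn, Rfc2, Mcm4, Prim2, Gins1, Gins2 and Gins4 were not used here. They were searched on both strands for TTTCCCGC, TTTGGCGC, TTTCGCGC and TTTGCCGC, the letters of E2F-type sites, and for CCAAT, the NF-Y box. At least 1 of the E2F-type words stood in 14 of 34 genes (41.2%), against 704 of 27025 genes (2.60%) with a window of that length. CCAAT stood in 21 of 34 (61.8%), against 41.1% of all genes. By role, the E2F-type words were in 4 of 5 MCM genes and 3 of 4 licensing genes, and in 0 of 4 nucleotide supply genes. Outside the 43 genes, they were in 4 of 11 further origin and licensing genes (36.4%) and in 1 of 18 mitosis genes. CCAAT stood in 5 of those 11 further origin and licensing genes and in 15 of the 18 mitosis genes (83.3%). The words matched 20 times in the 14 genes, with 2 pairs of matches overlapping each other and 1 match overlapping a CCAAT.

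The stretches that hold a match before the start base are given here on the strand of the gene, 5′ to 3′, with the E2F-type letters in capitals and 10 bases on each side. They were picked because they hold a searched word on either strand, so their shared letters follow from the search.
Mcm5 (chr8:75109346-75109377, plus strand): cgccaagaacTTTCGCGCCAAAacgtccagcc
Mcm6 (chr1:128359794-128359825, minus strand): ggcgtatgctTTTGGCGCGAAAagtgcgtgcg
Mcm6 (chr1:128359735-128359762, minus strand): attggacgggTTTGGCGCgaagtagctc
Mcm7 (chr5:138172031-138172058, minus strand): atttcgaaccGCGGGAAAcagggtgtcc
Orc1 (chr4:108579417-108579444, plus strand): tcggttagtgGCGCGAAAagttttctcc
Cdc6 (chr11:98908003-98908030, plus strand): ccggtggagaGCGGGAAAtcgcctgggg
Gins3 (chr8:95633508-95633535, plus strand): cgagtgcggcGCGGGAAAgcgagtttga
Pola1 (chrX:93632276-93632303, minus strand): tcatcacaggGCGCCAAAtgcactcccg
Rfc3 (chr5:151651191-151651228, minus strand): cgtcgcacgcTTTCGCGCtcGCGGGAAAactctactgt
Dtl (chr1:191575535-191575562, minus strand): gtgacgtcagTTTGGCGCggagtttggc
The longest compound matches are those of Mcm5 and Mcm6, in which words on both strands overlap. In Mcm3, Cdt1, Lig1, Clspn and Pold1 the matches lie after the start and are not printed. Mcm7 has a further match after the start, also not printed. A match is a description of letters and not a site shown to be bound.

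For Dtl, with the largest rise from 6 to 36 h in culture, and Rrm2, with the largest from 24 to 36 h, the 250 bases before the start are printed whole. The Dtl stretch ends on its match and holds no other, and the Rrm2 stretch holds none of the E2F-type words.
Dtl (chr1:191575545-191575794, minus strand): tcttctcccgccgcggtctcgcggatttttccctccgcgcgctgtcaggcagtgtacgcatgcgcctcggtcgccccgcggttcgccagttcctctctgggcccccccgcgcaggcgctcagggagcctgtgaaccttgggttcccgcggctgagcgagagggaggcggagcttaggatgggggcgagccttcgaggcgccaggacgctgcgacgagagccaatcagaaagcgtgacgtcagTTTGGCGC
Rrm2 (chr12:24708004-24708253, plus strand): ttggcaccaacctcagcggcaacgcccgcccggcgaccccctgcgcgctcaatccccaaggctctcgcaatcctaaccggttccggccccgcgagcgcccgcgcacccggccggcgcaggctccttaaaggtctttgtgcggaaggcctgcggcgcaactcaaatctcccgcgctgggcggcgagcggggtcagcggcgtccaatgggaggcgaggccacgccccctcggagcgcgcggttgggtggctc

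All 43 genes had their highest group mean at E12.5. The lowest mean was in sham ganglia for 14 genes, at 6 h for 10, in lesioned ganglia for 9, at 12 h for 5, at 24 h for 4 and at E17.5 for 1, E2f1. No gene was lowest at 36 h. As a percent of its own E12.5 mean, the median gene stood at 25.2% at E17.5, 9.28% in sham ganglia, 8.54% in lesioned ganglia, 9.54% after 6 h, 14.1% after 12 h, 14.5% after 24 h and 22.6% after 36 h in culture. The spread between genes was wide: at 36 h it ran from 5.10% for Rrm2 to 63.3% for Cdt1. These percentages set libraries of different preparations side by side, and age, surgery, culture and preparation cannot be told apart in them.

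**Figure D1:**
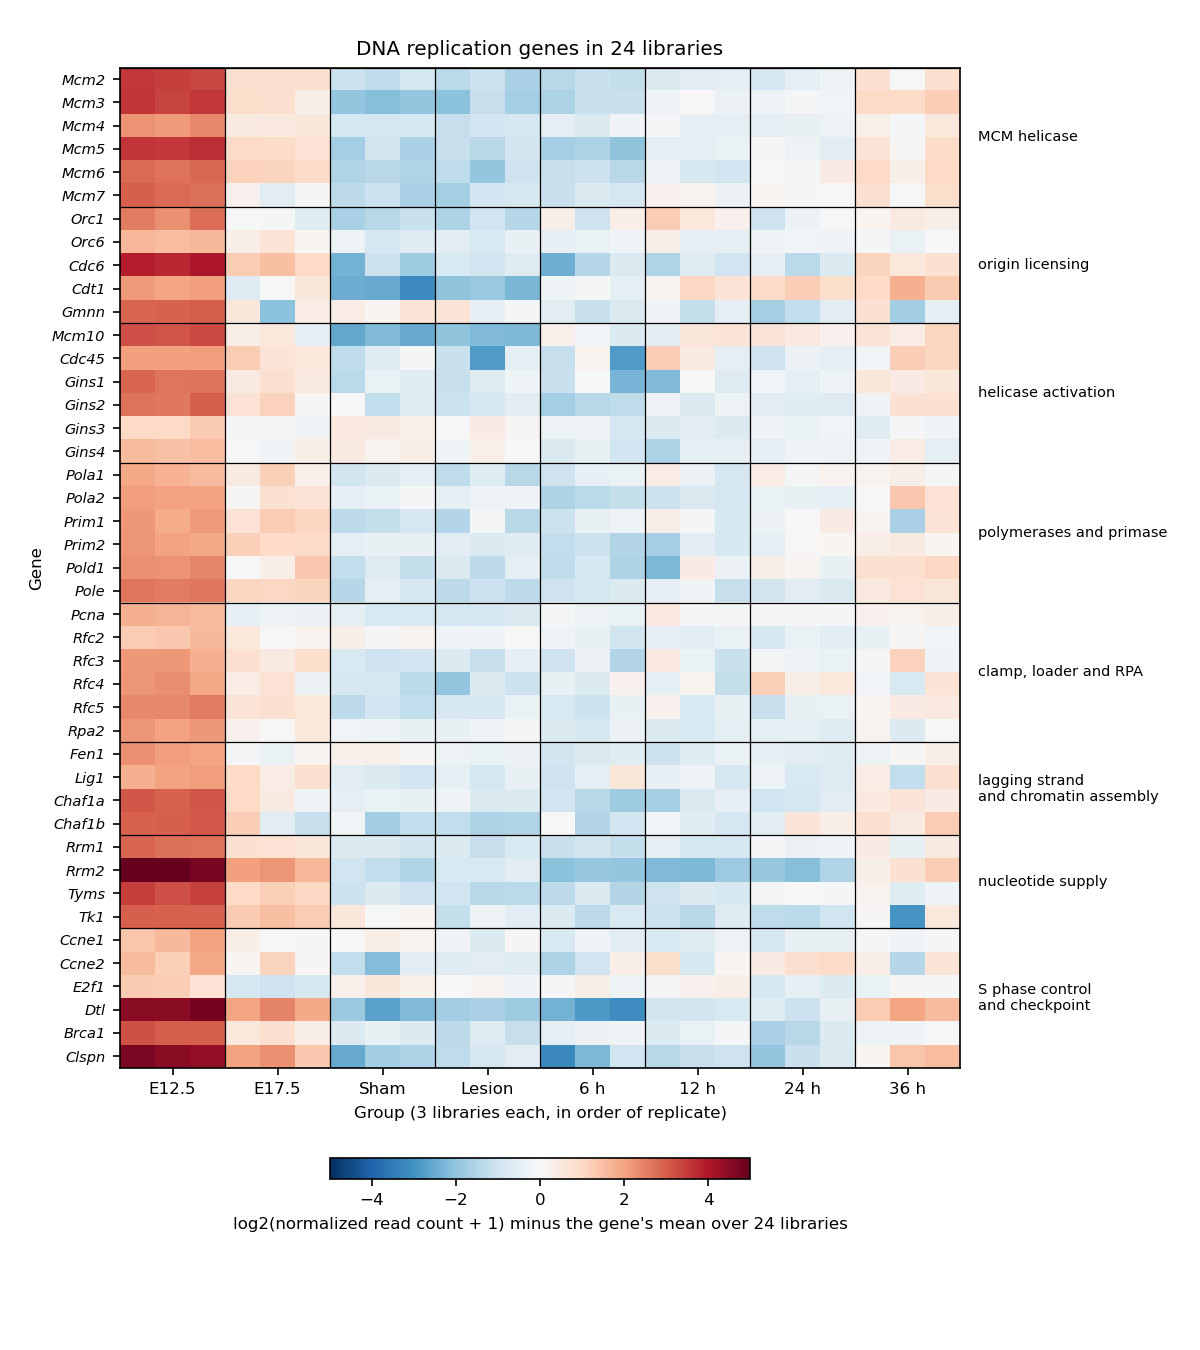
Normalized read count of the 43 replication genes (rows, by role) in each of the 24 libraries (columns, 3 per group), as log2(count + 1) minus the gene's mean over all libraries; red is above and blue below that mean. The 3 E12.5 columns are the reddest for every gene, the sham, lesion and 6 h columns are mostly blue, and the 36 h columns are paler or red.

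**Figure D2:**
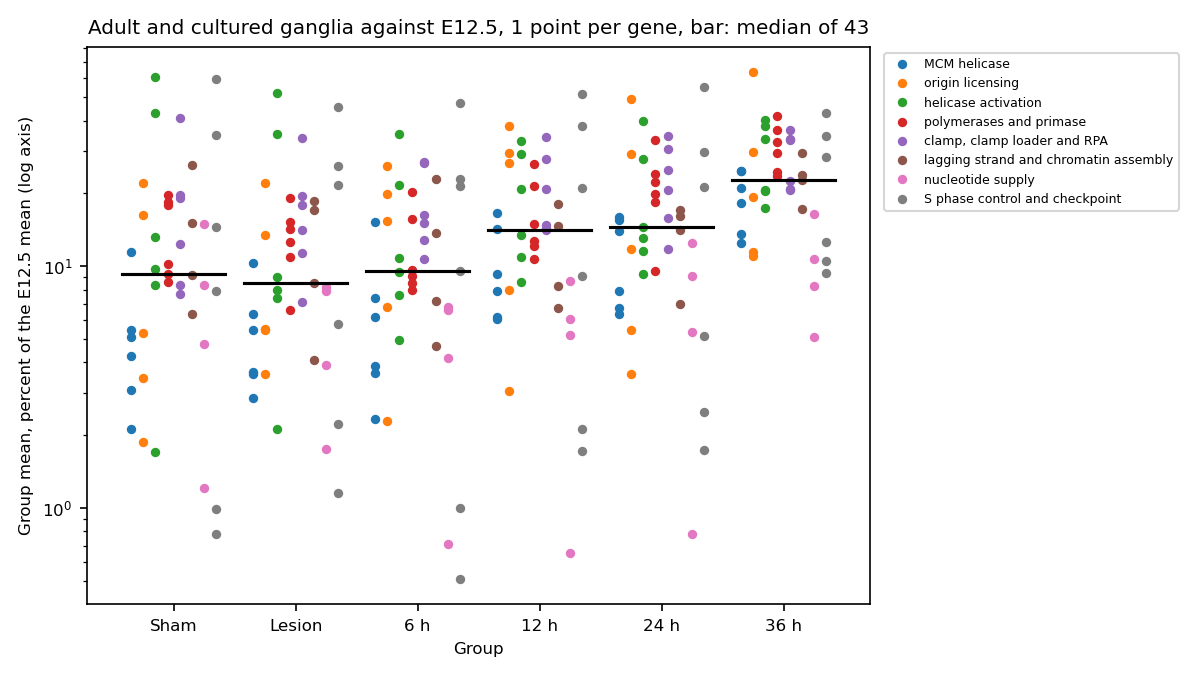
Mean of each adult or cultured group as a percent of the gene's E12.5 mean (log axis), 1 point per gene, coloured by role, with a bar at the median of the 43 genes. The bars rise from 9.28% in sham ganglia and 9.54% at 6 h to 22.6% at 36 h, and 1 nucleotide supply gene, Rrm2, stands between 0.65% and 0.78% at 6, 12 and 24 h in culture.

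Between E12.5 and E17.5 the whole set fell. All 43 genes were tested and 43 were lower at E17.5 by limma at an adjusted p below 0.05, where 31.9% of the 14550 genes tested were lower and 31.1% higher. No library of E17.5 overlapped those of E12.5 for any of the 43, and every E17.5 library lay below every E12.5 library for 35.5% of all genes tested. Their median log2 change was -1.99, against -0.05 for all genes tested, and the largest fall was that of Gmnn, -3.35. The smallest was that of Prim2, which stood at 49.7% of its E12.5 mean. Orc1, Gmnn, Cdc45, Rfc4 and Chaf1b passed the filter on low values through E12.5 alone, so for these 5 a fall was built into the filter. The E12.5 and E17.5 libraries come from different runs of numbers in the sample titles, so age and that difference cannot be told apart.

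The MCM subunits, which form the ring of the helicase, had a median log2 change of -2.69 between the embryonic ages. Mcm2 had normalized counts of 1609, 1496 and 1413 at E12.5 and of 239, 236 and 245 at E17.5. Mcm7 had 1051, 937 and 887 at E12.5 and 155, 88.2 and 139 at E17.5, with a log2 change of -2.94 ± 0.21 (SE, n = 3 and 3, limma adjusted p = 6.88e-06). Mcm4 and Mcm6 fell least of the 6, by 1.77 and 1.73 on the log2 scale.

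Falls of 3 or more log2 units were seen in 4 genes of other roles. Geminin, Gmnn, which binds CDT1 and blocks re-licensing, had 142, 146 and 155 at E12.5 and 27.1, 3.53 and 23.1 at E17.5. The lowest of these was the library with the fewest reads, in which 3.53 is the value of 1 read. Rrm2, the regulatory subunit of ribonucleotide reductase that is made in S phase, had 2298, 2084 and 1571 against 239, 268 and 185, a fall of 3.10 ± 0.19 (SE, limma adjusted p = 2.90e-06). The other genes were Mcm10, at -3.07 ± 0.25, and Chaf1b, a subunit of the CAF-1 histone chaperone, at -3.16 ± 0.53. Gmnn and Chaf1b are among the 5 genes for which a fall was built into the filter on low values.

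Polymerase and primase genes had the smallest median change of the 8 roles, -1.32. Prim1 and Prim2, the primase subunits that lay down RNA primers, stood at 48.9% and 49.7% of their E12.5 means, and Pola1, the catalytic subunit of polymerase alpha, changed by -1.10 ± 0.24. Pcna, the sliding clamp, had 2027, 1936 and 1785 at E12.5 and 450, 504 and 493 at E17.5. E2f1, the transcription factor that drives many S phase genes, had 702, 669 and 469 at E12.5 and 152, 138 and 162 at E17.5, its lowest group.

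Of 87 further genes of replication and the cell cycle, 86 were tested and 73 were lower and 4 higher at E17.5. All 20 mitosis genes fell, with a median of -2.45, as did all 8 genes for chromatin copied with the DNA. The 4 that rose were Cdkn1a, the p21 inhibitor of cyclin-dependent kinases, by 2.41 on the log2 scale, Rrm2b, the p53-inducible reductase subunit, by 1.27, Pold4 by 1.12 and Cdkn2c by 1.07. In the same contrast 9 of 10 neuron markers, 8 of 9 Schwann cell markers and 6 of 8 satellite glia markers were higher at E17.5. Of the satellite glia markers 1 was lower. Of 8 fibroblast markers 5 were higher and 1 lower, and of 7 macrophage markers tested 4 were higher and 0 lower. Of 8 endothelial and mural markers 2 were higher and 1 lower. Of 10 spinal cord and neural precursor markers only 5 passed the filter on low values, and of these 3 were lower and 1 higher. The summed count of all 10 was 1774 to 5188 at E12.5 and 292 to 469 at E17.5, with Neurog2 at 0 in the latter. At E12.5 Sox2 alone had 1259 to 4145 of it. The part of these cell types in the falls was not tested.

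Sham-operated adult ganglia were lower again than E17.5 ganglia for most genes: 33 of 43 were lower and 2 higher, where 28.5% of the 15935 genes tested were lower and 28.1% higher. The median log2 change was -1.35, against -0.01 for all genes tested. Dtl, the substrate receptor of the CRL4 ubiquitin ligase that destroys CDT1 in S phase, had 151, 219 and 146 at E17.5 and 9.84, 5.12 and 7.46 in sham ganglia, a change of -4.37 ± 0.27 (SE, limma adjusted p = 5.00e-12). Clspn, the checkpoint mediator claspin, fell by 3.82 and Rrm2 by 3.21 on the log2 scale. The MCM genes had log2 changes of -2.66 to -1.25. The falls of Orc1, Gins1, Pola2, Pcna, Rfc4, Rpa2 and Chaf1a lost their calls when single libraries were left out, that of Rpa2 in 5 runs.

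The 2 genes that went the other way were E2f1 and Gins3. E2f1 had 339, 414 and 338 in sham ganglia, above all 3 values at E17.5, with a log2 change of 1.26 ± 0.17 (SE, limma adjusted p = 1.34e-06). Gins3, a subunit of the GINS complex, had 153, 169 and 146 at E17.5 and 227, 224 and 192 in sham ganglia (log2 change 0.46 ± 0.18, limma adjusted p = 0.0303), and this call was lost without replicate 1 or 3 of E17.5 and without replicate 1 or 2 of sham. Gmnn, Cdc45, Gins4, Rfc2, Fen1, Chaf1b, Tk1 and Ccne1 were not called in either direction. Of 9 Schwann cell markers 7 were higher in sham ganglia and 0 lower, with sums of 25081 to 31206 at E17.5. Of 8 satellite glia markers 4 were higher and 1 lower, with sums of 14025 to 18854 at E17.5 and 47138 to 55292 in sham ganglia. Of 10 neuron markers 3 were higher and 2 lower, with sums of 103037 to 111279 at E17.5 and 167612 to 177068 in sham ganglia. Of 8 macrophage markers tested 0 were higher and 1 lower. Of 8 fibroblast markers 5 were lower and 2 higher, and of 8 endothelial and mural markers 5 were lower and 1 higher. The part of these cell types in the falls was not tested. These groups differ in age, in the ganglia taken and in preparation, which cannot be told apart.

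A peripheral lesion left most of these genes without a called change. Of the 43 genes, 36 could be tested, since Orc1, Mcm10, Cdc45, Prim1, Rfc4, Chaf1b and Clspn were too low in the operated groups, with 0 to 20.0 in the 6 libraries. By limma 0 were higher and 3 were lower after the lesion, where 20.9% of the 14556 genes tested were higher and 20.2% lower. At an unadjusted p below 0.05, 3 were higher and 6 lower, edgeR called 0 higher and 4 lower, and DESeq2 called 0 higher and 3 lower. The median log2 change was -0.11, against -0.01 for all genes tested.

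The 3 genes that fell act in different steps. Fen1, the flap endonuclease that trims Okazaki fragments, had 371, 368 and 326 in sham ganglia and 259, 245 and 254 after the lesion, groups that did not overlap (log2 change -0.48 ± 0.09, SE, n = 3 and 3, limma adjusted p = 0.00117). Tk1, the cytosolic thymidine kinase of the salvage route, had 63.0, 43.1 and 45.9 in sham ganglia and 17.8, 36.7 and 29.5 after the lesion (-0.87 ± 0.26, limma adjusted p = 0.0178). E2f1 had 274, 311 and 250 after the lesion, below the 3 sham values (-0.38 ± 0.11, limma adjusted p = 0.0142). The call for Fen1 held in every alternative that was run, while those for Tk1 and E2f1 were lost with 1 spread over all 24 libraries. Tk1 also lost its call without replicate 1 of sham or of lesion, at log2 changes of -0.71 and -0.59. E2f1 lost it without replicate 2 of sham or replicate 3 of lesion, at -0.29 and -0.31.

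Among the genes not called, Cdc6, the ATPase that helps load the helicase, had the largest difference, with 3.94, 11.0 and 6.31 in sham ganglia and 13.9, 11.7 and 15.0 after the lesion. Its log2 change was 0.94 ± 0.39 (SE, limma adjusted p = 0.0674). Cdt1 had 12.8, 12.4 and 7.46 against 17.8, 20.0 and 14.5, and Rrm2 had 28.5, 24.1 and 19.5 against 33.3, 33.4 and 38.2. The groups did not overlap for any of these 3 genes, but none passed the test. Over the 36 genes tested, every lesion library lay above every sham library for 5 and below for 5, against 26.3% of all genes tested in each direction. Cdc6, Cdt1 and Dtl passed the filter on low values only through the lesion libraries, so a higher value there was built into the filter. The 6 MCM genes had changes of -0.26 to 0.36 with a median of 0.12.

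Of the further genes, 7 of 75 tested were higher and 11 lower after the lesion, both smaller shares than the 20.9% and 20.2% of all genes tested. Cdkn1a had 1418, 1532 and 1376 in sham ganglia and 6263, 4170 and 5266 after the lesion, a log2 change of 1.84 ± 0.12 (limma adjusted p = 2.38e-06). Those that fell included Rpa1, the large RPA subunit, at -0.66, Atr, the checkpoint kinase, at -0.85, and Dut, which removes dUTP, at -0.62. None of the 13 mitosis genes tested was called by limma. In the same libraries 7 of 9 macrophage markers were higher after the lesion, with 1 of the 9, Adgre1, not in the table, and their summed count went from 1115 to 1176 in sham ganglia to 2326 to 3666. Of 8 fibroblast markers 6 were higher and 0 lower, and of 8 endothelial and mural markers 3 were higher and 1 lower. The part of these cell types in the changes was not tested.

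**Figure D3:**
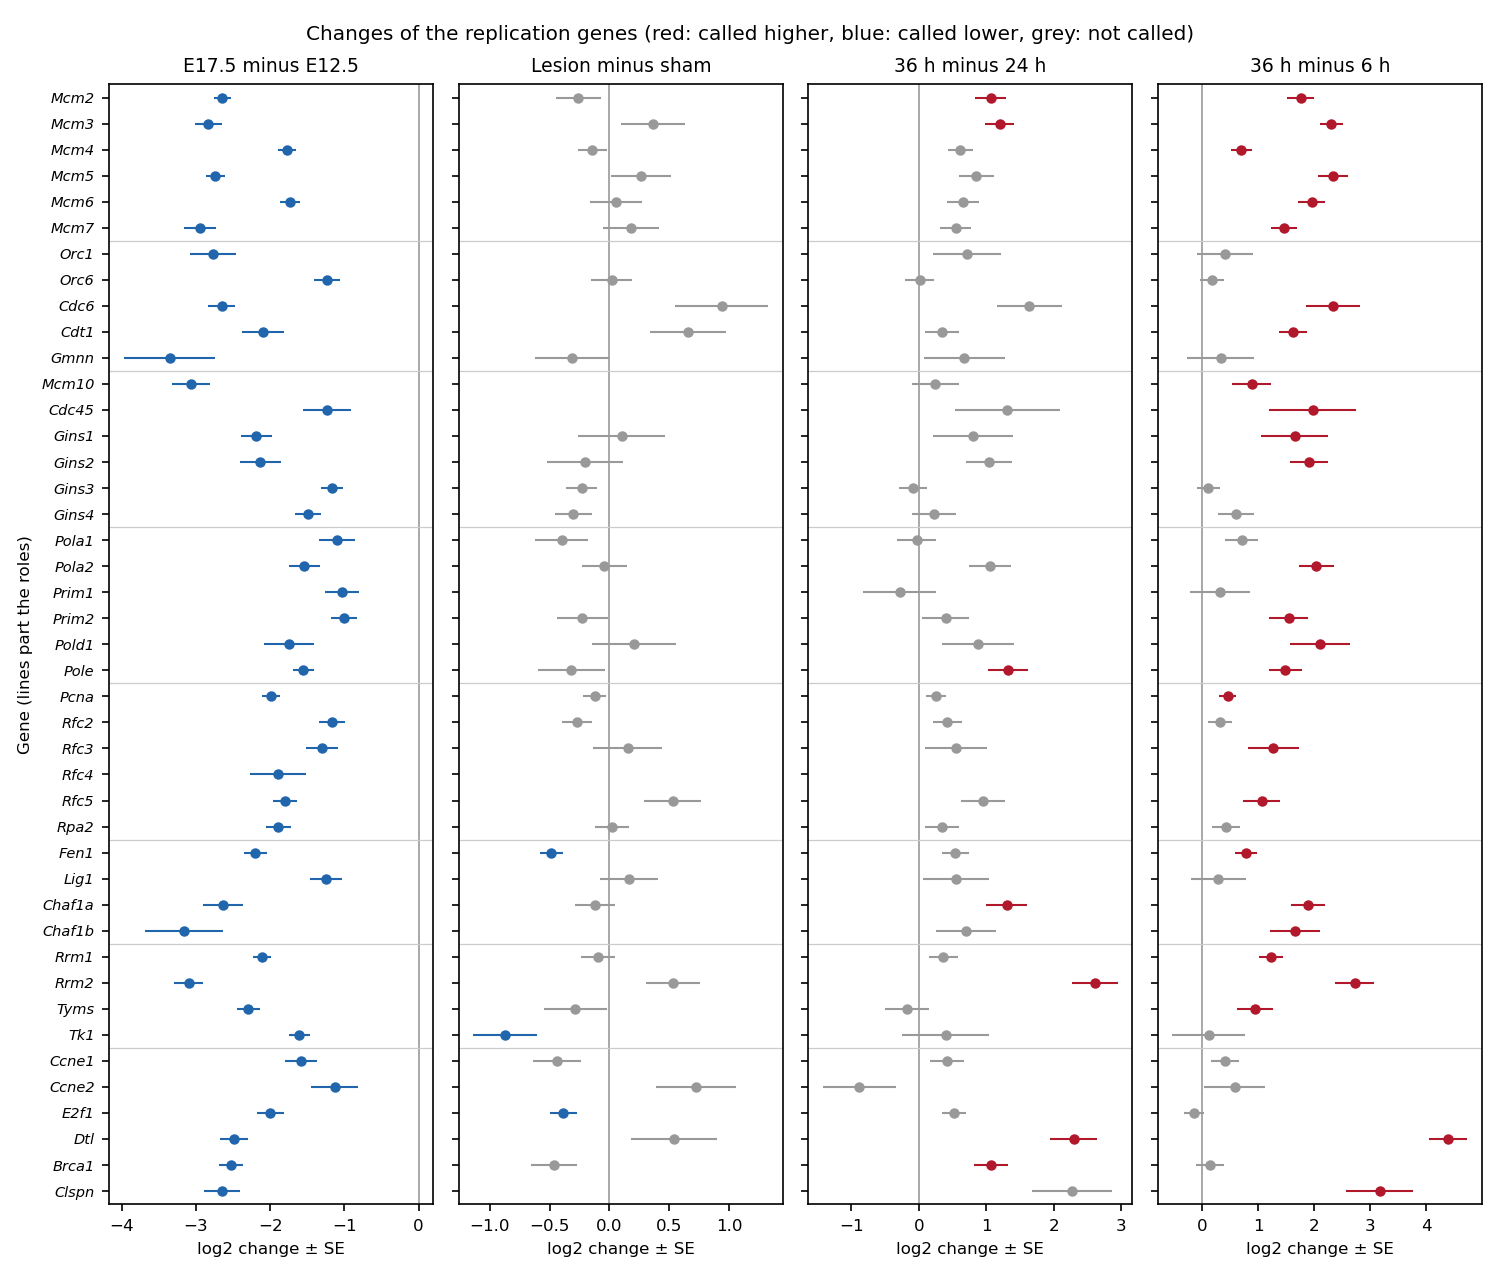
log2 change with its standard error for each gene tested in 4 comparisons, red where called higher, blue where called lower and grey where not called, with lines between the roles. All 43 genes are blue between E12.5 and E17.5, 3 of 36 are blue after the lesion, 7 of 42 are red from 24 to 36 h and 27 of 42 are red from 6 to 36 h.

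In freshly plated ganglia at 6 h, 6 of 43 genes were higher than in sham ganglia and 10 lower, where 23.3% of the 15935 genes tested were higher and 24.5% lower. Neither count exceeded the share over all genes. Cdt1 rose most, from 12.8, 12.4 and 7.46 in sham ganglia to 65.3, 70.9 and 52.9 at 6 h, a log2 change of 2.45 ± 0.28 (SE, limma adjusted p = 2.15e-07). Mcm10 rose by 2.24, Orc1, the largest subunit of the origin recognition complex, by 1.23, Mcm3 by 0.73, Pcna by 0.44 and Mcm4 by 0.39. The lower genes were Gins2, Gins3, Gins4, Pola2, Prim2, Rfc2, Fen1, Chaf1a, Rrm2 and Ccne1, which fell by 0.62 to 1.08 on the log2 scale. The calls for Mcm4, Orc1, Gins2, Rfc2, Rrm2 and Ccne1 were lost when a single library was left out. Those for Gins2 and Rrm2 were also lost with only the sham and 6 h libraries fitted, at limma adjusted p of 0.0655 and 0.0584. Without replicate 3 of 6 h the changes of Mcm4 and Rfc2 were 0.25 and -0.41, and without replicate 1 of sham that of Gins2 was -0.51.

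The sham and 6 h groups also differ in the ganglia taken, in dissociation and in preparation. In the same comparison 6 of 8 satellite glia and 7 of 8 fibroblast markers were lower at 6 h and 0 higher. Of 10 neuron markers 6 were lower and 1 higher. Of 9 Schwann cell markers 6 were lower and 1 higher, and of 8 macrophage markers tested 5 and 1. Of 8 endothelial and mural markers 3 were higher and 1 lower, with sums of 2534 to 2874 in sham ganglia and 4023 to 4855 at 6 h. Of 6 spinal cord and neural precursor markers tested 1 was higher and 2 lower. The sum of all 10 was 281 to 334 in sham ganglia and 828 to 1142 at 6 h. The summed macrophage count was 236 to 288 at 6 h and the fibroblast count 12720 to 14058, against 21725 to 24749 in sham ganglia. These causes cannot be told apart.

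Between 6 and 36 h in culture 27 replication genes rose and none fell. Of 43 genes 42 were tested. Cdc45 passed the filter on low values only with libraries of both 12 and 36 h, so the filter favoured a higher value there than at 6 h. Rfc4, of the clamp loader, was too low, with 2.05 to 14.8 in the 12 cultured libraries. By limma 27 were higher and 0 lower at 36 h, where 25.3% of the 15006 genes tested were higher and 25.3% lower. No gene was lower at an unadjusted p below 0.05, by edgeR or by DESeq2 either, and both of those tools called 27 higher. The median log2 change was 1.15, against 0.02 for all genes tested, and 41 of 42 changes were positive. An F test over the 4 times called 24 of 42, where 45.7% of all genes tested were called.

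All 6 MCM genes rose. Mcm5 had 22.5, 24.2 and 17.6 at 6 h, 54.5, 55.1 and 60.1 at 12 h, 71.3, 62.0 and 51.8 at 24 h and 122, 79.1 and 143 at 36 h, a change of 2.34 ± 0.26 from 6 to 36 h (SE, limma adjusted p = 3.22e-06). Mcm3 had 28.3, 39.0 and 38.8 at 6 h, 74.0, 87.7 and 69.7 at 12 h, 71.3, 80.9 and 78.6 at 24 h and 166, 167 and 200 at 36 h. Both rose from 6 to 12 h, and the step from 24 to 36 h was called for Mcm3 (limma adjusted p = 0.00755) and not for Mcm5 (0.85 ± 0.26, limma adjusted p = 0.0973).

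Mcm2 had 51.5, 63.2 and 59.9 at 6 h and 231, 140 and 244 at 36 h, and Mcm6 had 66.1, 70.4 and 56.4 against 295, 181 and 296. Mcm7 had 60.3, 79.2 and 74.0 against 230, 135 and 243. Mcm4 had the smallest of the 6 changes, from 195, 165 and 240 to 328, 261 and 390, by 0.70 ± 0.19. Replicate 2 of 36 h was the lowest of its group for Mcm2 and Mcm4 to Mcm7, yet it stood above every 6 h library for each of the 6 genes.

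**Figure D4:**
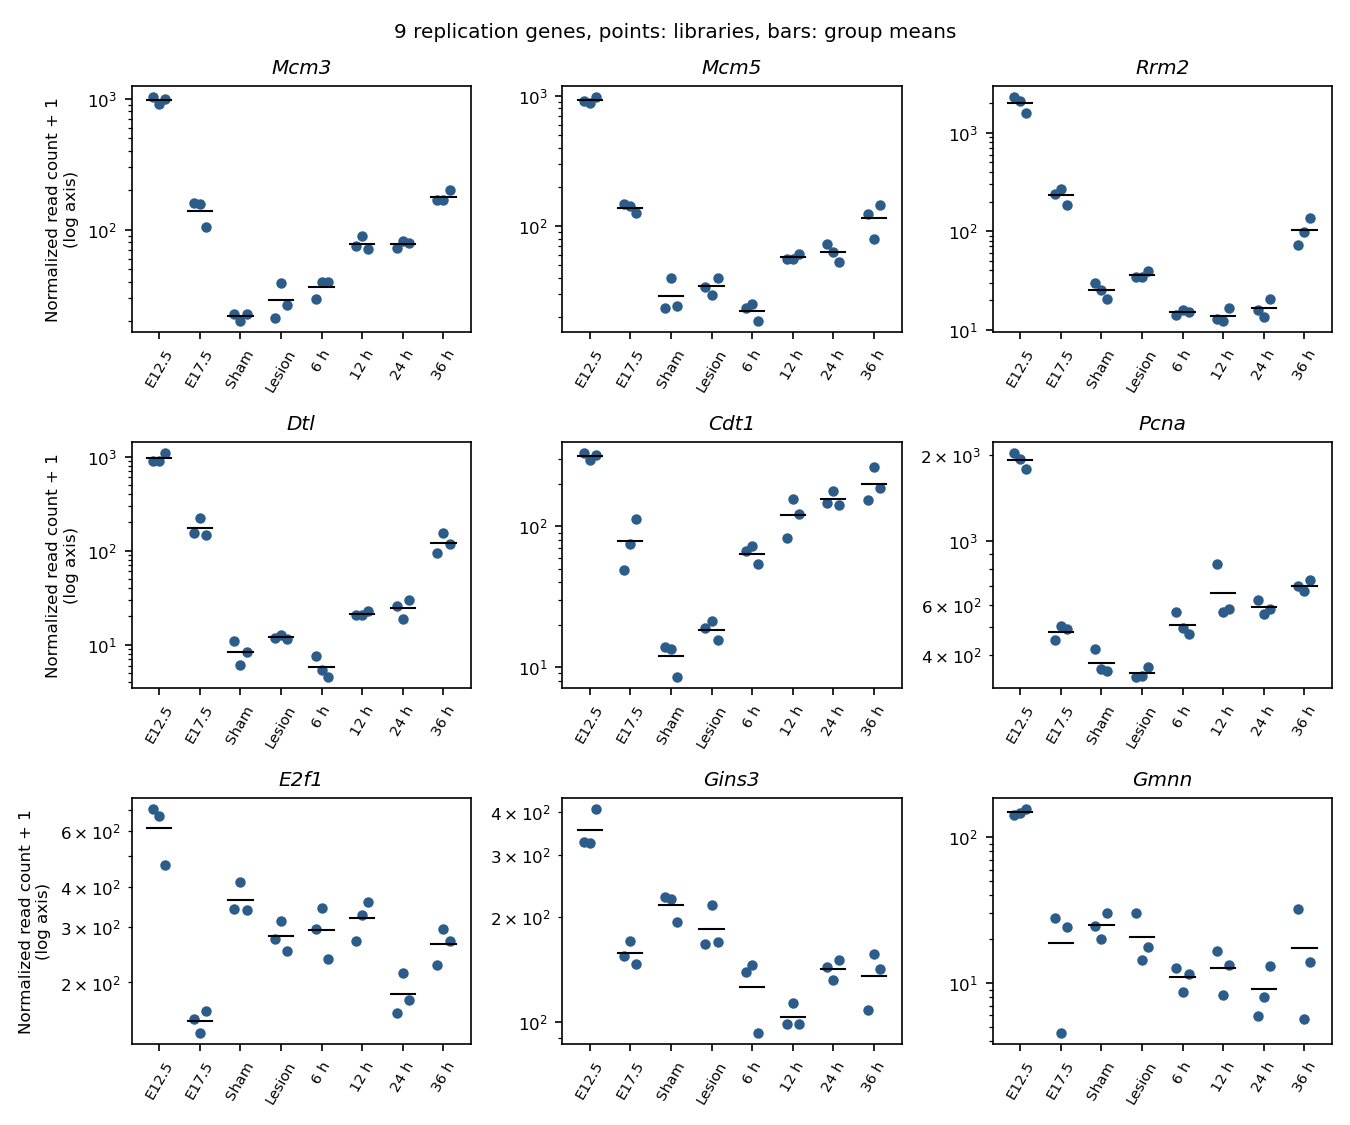
Normalized read count + 1 (log axis) of 9 genes in the 3 libraries of each group (points) with the group mean (bar). Mcm3, Mcm5, Rrm2 and Dtl climb in culture, Cdt1 is already above the sham and lesion libraries at 6 h, and E2f1, Gins3 and Gmnn show no such climb.

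Of 5 licensing factors 2 rose. Cdc6 went from 3.63, 8.25 and 14.1 at 6 h to 52.8, 35.7 and 41.5 at 36 h, a rise of 2.34 ± 0.48 (limma adjusted p = 0.000799). Cdt1 went from 65.3, 70.9 and 52.9 to 81.8, 155 and 122 at 12 h, 145, 178 and 140 at 24 h and 152, 262 and 186 at 36 h, a rise of 1.62 ± 0.25 (limma adjusted p = 7.55e-05). Orc1, Orc6 and Gmnn were not called.

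Geminin, the inhibitor of CDT1, had 11.6, 7.70 and 10.6 at 6 h and 31.3, 4.65 and 12.9 at 36 h, so the 36 h libraries lay on both sides of the 6 h ones. The change was 0.33 ± 0.60 (SE). At 36 h Cdt1 stood at 63.3% of its E12.5 mean and Gmnn at 11.0% of its own.

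Of 6 factors that activate the helicase 4 were called higher. Gins2 went from 10.2, 13.2 and 14.1 at 6 h to 31.3, 62.0 and 60.9 at 36 h, a change of 1.91 ± 0.34 (limma adjusted p = 0.000288). Cdc45 had the largest change of this role, 1.97 ± 0.78, but on few reads, with 2.18, 7.15 and 0 at 6 h and 5.39, 15.5 and 13.8 at 36 h. Its groups overlapped, the filter on low values favoured its rise, and edgeR and DESeq2 did not call it. Without replicate 3 of 6 h, one of the shallow libraries, its change was 1.19 and not called, and without replicate 1 of 6 h it was not called either. Mcm10 and Gins1 were called, at 0.88 and 1.65. Gins1 lost its call in 5 of the 6 runs that left out 1 library of 6 or 36 h, with a change of 1.06 without replicate 3 of 6 h, and Mcm10 lost its call in 4 of the 6. Gins3 and Gins4 were not called.

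Of 6 polymerase and primase genes 4 rose. Pold1, the catalytic subunit of polymerase delta, had the largest rise, from 8.71, 11.5 and 7.05 to 38.8, 40.3 and 47.1, by 2.11 ± 0.53 (limma adjusted p = 0.00396). Pola2, the accessory subunit of polymerase alpha, rose by 2.04, Prim2 by 1.54 and Pole, the catalytic subunit of the leading strand polymerase, by 1.48. Pola1 and Prim1 were not called, at 0.71 ± 0.29 and 0.32 ± 0.54.

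Of 5 clamp, loader and RPA genes tested 3 rose. Pcna had 563, 496 and 472 at 6 h and 699, 670 and 729 at 36 h, groups that did not overlap, with a change of 0.46 ± 0.15 (limma adjusted p = 0.0170). The call was lost without replicate 3 of 6 h or of 36 h. It already had 830, 563 and 581 at 12 h. Rfc3, of the clamp loader, had the largest change of this role, from 14.5, 24.7 and 10.6 to 32.3, 69.8 and 26.8 (1.27 ± 0.46), and lost its call without replicate 2 of 36 h, where the change was 0.87, and without replicate 1 or 3 of 6 h. Rfc5 was called at 1.07, but not without replicate 2 of 6 h, and Rfc2 and Rpa2, the middle subunit of RPA, were not called.

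Of 4 genes of lagging strand processing and chromatin assembly 3 rose. Chaf1a, the large subunit of CAF-1, which places histones behind the fork, had 57.4, 42.3 and 31.7 at 6 h and 156, 177 and 151 at 36 h, a change of 1.90 ± 0.30 (limma adjusted p = 9.90e-05). Chaf1b rose by 1.66 and Fen1 by 0.78. Lig1, the ligase that seals Okazaki fragments, was not called, with 19.6, 29.1 and 63.5 at 6 h and 53.9, 17.1 and 72.9 at 36 h, values that overlapped throughout.

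Of 4 nucleotide supply genes 3 rose. Rrm2 had 13.1, 14.8 and 14.1 at 6 h, 11.7, 11.2 and 15.7 at 12 h, 14.8, 12.3 and 19.4 at 24 h, and then 71.1, 97.7 and 135 at 36 h. The first 3 times overlapped, and the group mean was then 6.53-fold higher at 36 h than at 24 h, a log2 change of 2.61 ± 0.34 (limma adjusted p = 0.00127). Rrm1, the large reductase subunit, rose by 1.23 from 6 to 36 h and Tyms, thymidylate synthase, by 0.95, a call lost without replicate 1 or 3 of 6 h or replicate 1 of 36 h.

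Tk1 was not called. Its values were 26.1, 16.5 and 24.7 at 6 h and 44.2, 4.65 and 60.9 at 36 h, where replicate 2 was the lowest of all 24 libraries and the other two were above every 6 h library. Even at 36 h the 4 nucleotide supply genes stood at only 5.10% to 16.5% of their E12.5 means.

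Dtl had the largest rise of the 42. It went from 6.53, 4.40 and 3.53 at 6 h to 19.5, 19.5 and 21.9 at 12 h, 24.6, 17.6 and 29.2 at 24 h and 93.8, 152 and 115 at 36 h. The change from 6 to 36 h was 4.39 ± 0.34 (SE, limma adjusted p = 8.23e-08), in 2 steps called at 12 h and at 36 h. Clspn followed, from 1.45, 3.85 and 10.6 to 23.7, 58.9 and 66.5, by 3.17 ± 0.60 (limma adjusted p = 0.000414).

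The other 4 genes of S phase control were not called from 6 to 36 h. Ccne1, a cyclin E that activates CDK2, had 39.2, 57.7 and 45.8 at 6 h and 63.6, 60.5 and 64.6 at 36 h, groups that did not overlap (0.41 ± 0.25). Ccne2, the second cyclin E, had 24.0, 35.7 and 91.7 against 90.6, 26.4 and 113. E2f1 had 295, 342 and 236 at 6 h, 269, 326 and 357 at 12 h, 160, 214 and 175 at 24 h and 225, 293 and 270 at 36 h, lowest at 24 h and with a change of -0.14 ± 0.18 from 6 to 36 h.

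The steps of the time course were tested one by one. For most of the 27 genes that rose from 6 to 36 h no step was called, so the steps do not show when these rose. From 6 to 12 h 5 of 42 genes rose, Mcm3, Mcm5, Mcm7, Cdt1 and Dtl, and 0 fell, where 5.86% of all genes tested were higher and 4.72% lower. At an unadjusted p below 0.05 there were 10 higher and 0 lower, and edgeR and DESeq2 each called 5 higher and 0 lower. All 5 of these genes have an E2F-type word in the promoter window, as do 14 of the 34 genes with a window. The calls for Mcm7 and Cdt1 were lost when single libraries were left out, for both without replicate 1 of 6 h or replicate 2 of 12 h, and for Cdt1 also without replicate 3 of either time.

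From 12 to 24 h 0 rose and 2 fell, where 4.82% of all genes tested were higher and 6.74% lower. Neither count exceeded the share over all genes. At an unadjusted p below 0.05 there were 5 higher and 3 lower, and edgeR and DESeq2 each called 1 higher and 2 lower. E2f1 fell by 0.79 ± 0.18 (limma adjusted p = 0.0104). Brca1, which protects stalled forks and repairs breaks by recombination, had 70.1, 91.1 and 107 at 12 h and 36.9, 43.5 and 70.5 at 24 h, values that overlapped, and fell by 0.85 ± 0.25 (limma adjusted p = 0.0402). Both calls were lost when single libraries were left out, for both without replicate 3 of 12 h or replicate 1 of 24 h, and for Brca1 also without replicate 2 of either time.

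From 24 to 36 h 7 of 42 genes rose and 0 fell, where 1.11% of all genes tested were higher and 1.55% lower. They were Mcm2, Mcm3, Pole, Chaf1a, Rrm2, Dtl and Brca1. Of the 6 with a promoter window 2, Mcm3 and Dtl, have an E2F-type word, as do 10 of the 22 with a window among the 27 that rose from 6 to 36 h. For 22 of the 42 genes every 36 h library lay above every 24 h library, as for 14.0% of all genes tested. At an unadjusted p below 0.05 there were 18 higher and 0 lower, edgeR called 11 and DESeq2 14 higher, and neither called any lower.

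Mcm2 had 76.2, 97.1 and 114 at 24 h, below all its 36 h values (1.06 ± 0.23), and Pole had 24.6, 32.5 and 28.4 against 65.8, 79.1 and 72.9 (1.32 ± 0.29). Brca1 returned to 94.9, 97.7 and 117, near its 6 h values of 84.2, 93.4 and 102. With any single library left out, Mcm3, Rrm2 and Dtl kept their calls, whereas Pole and Chaf1a lost theirs in each of the 6 runs. Mcm2 and Brca1 lost theirs in 5 of the 6, the exception being the run without replicate 2 of 36 h for Mcm2 and without replicate 3 of 24 h for Brca1. Over the 3 steps, 31 of the 42 genes tested had no step called, and Mcm3 and Dtl were called higher at both 12 and 36 h.

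In the wider list, 29 of 79 further genes tested were higher and 10 lower from 6 to 36 h, against 25.3% of all genes tested in each direction. All 5 G1 cyclins and kinases rose. Ccnd1, cyclin D1, which starts the inactivation of RB, had 2299, 1795 and 2063 at 6 h, 4103, 3483 and 3761 at 12 h, 7000, 6306 and 6033 at 24 h and 9691, 10285 and 8885 at 36 h, with no overlap at any step (2.23 ± 0.12, limma adjusted p = 1.63e-09). Ccnd3 rose by 2.08 and Ccnd2 by 1.56.

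Uhrf1, which brings maintenance methylation to newly copied DNA, rose most of this list, from 10.9, 15.4 and 14.1 at 6 h to 264, 197 and 341 at 36 h (4.19 ± 0.31, limma adjusted p = 5.06e-08). Cdk2 rose by 1.69, Rbl1, the p107 pocket protein, by 2.27, Ticrr, which helps fire origins, by 2.96 and Cdc7, the kinase that phosphorylates MCM, by 1.47. Orc3, Orc4 and Orc5, subunits of the origin recognition complex, fell by 0.93, 0.79 and 0.52. Rrm2b fell by 1.35, the opposite side from Rrm2.

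Of 14 mitosis genes tested 4 rose and 1 fell, where 25.3% of all genes tested were called in each direction, so the count of rises was near the share over all genes. A further 6 of the 20 in the list were too low to test. Top2a, topoisomerase II alpha, went from 5.08, 6.05 and 3.53 at 6 h to 60.4, 63.6 and 117 at 36 h (3.75 ± 0.50, limma adjusted p = 1.81e-05), against 3000, 2623 and 2471 at E12.5. Kif11, the spindle motor Eg5, went the other way, from 166, 190 and 243 at 6 h to 21.6, 45.0 and 33.2 at 36 h, by -2.59 ± 0.34. Cdkn1a had 3657, 3175 and 2539 at 6 h and 5766, 6758 and 7163 at 12 h, a rise of 1.08 ± 0.13, and 7066, 7148 and 6777 at 36 h.

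Cell type markers moved over the same hours, in which 25.3% of all genes tested were called higher and 25.3% lower. Of 10 neuron markers 6 were lower at 36 than at 6 h and 0 higher, and their summed count went from 107534 to 113881 down to 62201 to 73086. Of 8 endothelial and mural markers 6 were higher, with sums of 4023 to 4855 and 5324 to 6846, and 4 of 8 satellite glia markers were higher and 2 lower, with sums of 20402 to 22080 and 24098 to 27289. Of 9 Schwann cell markers 3 were higher and 3 lower, near those shares. Of 7 macrophage markers tested 3 were higher and 1 lower, with sums of 236 to 288 and 385 to 400. Of 7 fibroblast markers tested 3 were higher and 0 lower, with sums of 12720 to 14058 and 11405 to 14344. The summed count of 10 spinal cord and neural precursor markers went from 828 to 1142 up to 1816 to 1884, with Neurog1 at 0 at 36 h. Only 2 of these 10 passed the filter on low values, and Sox2, which satellite glia also express, alone had 801 to 1121 at 6 h and 1744 to 1846 at 36 h. The part of each cell type in the rise of the replication genes was not tested.

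Against E12.5, the 36 h cultures were still lower for 42 of 43 genes and higher for 0, where 35.7% of the 15935 genes tested were lower and 35.1% higher. No gene was higher at an unadjusted p below 0.05, by edgeR or by DESeq2. Cdc45 was not called by limma (-1.36 ± 0.66), although its groups did not overlap. The median change was -2.16, with Rrm2 the lowest at -4.31 and Cdt1 the nearest at -0.69 ± 0.28 (limma adjusted p = 0.0322), a call lost without replicate 1 or 3 of either group. The 20 mitosis genes were all lower, with a median of -4.98. Age, culture and preparation cannot be told apart here.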

How the data were processed

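RNA of 24 mouse DRG libraries, 3 in each of 8 groups assigned from the sample titles, was analysed from the table that the authors deposited, which holds 1 signal value per gene and library. Per the submitters' processing notes, TopHat and the mm10 build were used. Not given in the sources used here are its version, the annotation, the counting tool, its use of strand and how the factors were made. The deposited signal values are read counts divided by 1 factor per library: of 339603 values of up to 1000 reads, 100% came out as whole reads within a tolerance of 0.1. No column was without a sample, so 0 were set aside. Libraries held 3103838 to 25732182 reads by this recovery, and low genes rest on few reads in the shallow ones.

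Values were tested as log2(value + 1) with limma 3.58.1 (empirical Bayes with trend) in R 4.3.3, which understates the changes of low genes. Genes needed a value of at least 10 in at least 3 libraries of the fit, and a call is a Benjamini-Hochberg adjusted p below 0.05 over all genes tested, two-sided. The embryonic, operated and cultured libraries were fitted apart, and all 24 together for comparisons across them. Alternatives were pseudocounts of 0.5 and 5, no filter, a minimum of 50, a further TMM scaling, edgeR 4.0.16 and DESeq2 1.42.0 on the recovered reads, another choice of libraries in the fit, the number series of the operated libraries as a term, and each library left out in turn. The functions were tested on simulated data. The rule for named genes was to give values by library for Mcm2 to Mcm7, Cdt1, Gmnn, Rrm2, Pcna, Ccne1, Ccne2 and E2f1 and for the gene of each role with the largest change from 6 to 36 h. They are printed for the groups a comparison turns on, and the heatmap shows all 24 libraries. Others were added after their values were seen. Of each further list up to 3 rises and 3 falls were eligible to be named. The 43 genes and all lists were chosen with earlier results of these data known. Promoter windows are from RefSeq, GRCm38.p6.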

Additional observations from a re-analysis of the deposited data

How the results depend on the processing

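No change of direction occurred for any gene called, under any alternative run. Counts of called genes moved as follows. With edgeR and with DESeq2 the genes higher from 24 to 36 h numbered 11 and 14 in place of 7, and those higher from 12 to 24 h numbered 1 with each in place of 0. With 1 spread over all 24 libraries the former count was 13 and the latter 4, and the genes lower after the lesion numbered 1 in place of 3. Without a filter on low values 1 gene in place of 2 was lower from 12 to 24 h, with the call for Brca1 lost. That setting also lost the calls for Cdt1 from 6 to 12 h, Chaf1a and Brca1 from 24 to 36 h and Mcm10 from 6 to 36 h, at limma adjusted p of 0.0599, 0.0616, 0.0589 and 0.0669. With a minimum of 50 in 3 libraries, 17 of the 28 genes then tested were higher from 6 to 36 h, in place of 27 of 42, since fewer genes were tested. Leaving out 1 library at a time gave 0 to 1 genes higher and 2 to 7 lower after the lesion (7 without replicate 2 of lesion), 3 to 7 higher from 6 to 12 h, 0 to 2 higher and 0 to 2 lower from 12 to 24 h, 3 to 5 higher from 24 to 36 h, 22 to 26 higher from 6 to 36 h and 1 to 2 higher in sham ganglia than at E17.5. The causes of these moves were not tested. Calls kept in every alternative numbered 40 of 43 between the embryonic ages, 1 of 3 after the lesion (Fen1), 3 of 5 from 6 to 12 h (Mcm3, Mcm5 and Dtl), 0 of 2 from 12 to 24 h, 3 of 7 from 24 to 36 h (Mcm3, Rrm2 and Dtl), 20 of 27 from 6 to 36 h, 27 of 35 between E17.5 and sham, 10 of 16 between sham and 6 h and 40 of 42 between E12.5 and 36 h. Depth limits the low genes most: Cdc45 had no read in 2 libraries. With the run of numbers in the titles of the operated libraries (below or above 100) as a term, 0 genes were higher and 3 lower after the lesion, as without it, and the log2 change of Fen1 was -0.48. That term marks a run of numbers and does not pair libraries. No paired analysis was possible because the labels give the groups no shared replicate numbers.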

Other observations

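Outside the lists, the 8 genes whose 8 group means were most like the mean profile of the replication genes (Pearson r on log2(value + 1), 13541 candidate genes with a highest group mean of at least 50) were Zfp608, Ung, Snrnp40, Trim28, Vegfc, Foxp4, Ncapg2 and Mms22l, with r from 0.99 to 1.00. The points are 8 group means that share the E12.5 peak and the same libraries, and r is given as a description only. Ung, the uracil glycosylase that clears uracil from newly copied DNA, had group means of 253 at E12.5, 64.5 at E17.5, 19.2 in sham ganglia, 18.9 in lesioned ganglia, 24.1 at 6 h and 61.0 at 36 h. Mms22l, which acts in the repair of stalled forks, had group means of 269 at E12.5, 44.6 at E17.5, 11.2 in sham ganglia and 43.5 at 36 h. Ncapg2, a condensin II subunit, had 785 at E12.5, 109 in sham ganglia and 196 at 36 h.

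Within the 43 genes, the profile of each gene was set beside the mean of the others in the same way. Mcm2 was the most alike, with an r of 1.00 over the 8 group means. The least alike were E2f1 (0.41), Gins3 (0.64) and Cdt1 (0.68). E2f1 and Gins3 stood higher in sham ganglia than at E17.5, and Cdt1 was at 20.0% of its E12.5 mean already at 6 h, against a median of 9.54% over the 43 genes.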
